A study of Mus musculus with 4 samples.

Results

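The ventral tegmental area (VTA) and the thalamus lay side by side on the same midbrain sections, and gene expression in the 2 regions was compared within 5 control mice. The VTA is a midbrain nucleus rich in dopamine (DA) neurons, which make DA from tyrosine, load it into vesicles and take it back up after release, and which project to the striatum and forebrain. Thalamic relay neurons are glutamatergic, pass sensory and motor signals to the cortex, and fire in tonic and burst modes. The comparison uses 10 region columns, 5 of the VTA and 5 of the thalamus, of 23 columns on the 2 midbrain arrays and 47 in the whole series of 8 mice. They were chosen by the region and mouse named in the column headings, with no measured value used.

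All mice were male, 3 to 4 months old and DAT (iCre/iCre), so that Cre recombinase is made in cells that use the dopamine transporter gene, and all were single housed with a running wheel. GqVeh mice (3: 784, 785 and 802) carried a Cre-dependent AAV for hM3Dq-mCherry, injected into the midbrain on both sides, and drank 2% sucrose for 1 week without the ligand CNO. CNO alone mice (2: C1W7 and C2W2) had no injection and drank CNO at 300 mg/L with 2% sucrose for 1 week. hM3Dq is a receptor engineered from the human M3 muscarinic receptor that signals through Gq when CNO binds. Each mouse contributed 1 section of 10 μm, and the mouse is the replicate. Array pair 1 held GqVeh 802 and CNO alone C2W2, and array pair 2 held GqVeh 784, GqVeh 785 and CNO alone C1W7.

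Expression was measured on Visium discs, barcoded spots that can each hold several cells, and transcripts were counted by their unique molecular identifiers (UMIs). Levels are UMIs per 10000 in a region of a mouse, and log2 differences are VTA minus thalamus on log2(level + 0.5), a scale that understates changes of low genes. The VTA columns held 25808 to 350222 UMIs from 2 to 49 discs, and the thalamus columns held 80837 to 296950 UMIs from 8 to 29 discs. The 2 smallest columns also stood apart from the rest of their region. The VTA of GqVeh 785 (2 discs) correlated at r = 0.820 across genes with the mean of the other VTA columns (0.909 to 0.959 for the others), and the thalamus of CNO alone C2W2 (8 discs) at r = 0.895 with the other thalamus columns (0.935 to 0.960 for the others). Among genes with a regional mean of at least 1, the VTA of GqVeh 785 lay over 2-fold above all other VTA columns in 11 of 1825 and below them in 41. The thalamus of CNO alone C2W2 did so in 8 and 5 of 1865. Both counts are on the log2(level + 0.5) scale. Where a gene named below is far from the others in these columns, those levels are given, but not all such genes are named.

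The authors picked discs with Th, Slc6a3 and Slc18a2 for the VTA and with Prkcd, Ptpn3 and Synpo2 for the thalamus, and left out discs high in Gfap, Aldh1l1, Aif1 or P2ry12, so the levels of these genes are partly a product of that choice. The region labels were set against markers that were not used to pick discs. The summed level of 11 other tested genes of DA synthesis, storage and uptake was 31.5 to 50.6 in the VTA and 4.95 to 10.3 in the thalamus, and that of 18 other tested thalamic genes was 9.84 to 13.9 in the VTA and 59.1 to 89.6 in the thalamus. Only tested genes were summed, and some were tested only through the region where they are high, so these sums are descriptions. The 18 include Calb2, at 19.7 in the thalamus of CNO alone C2W2 and at 0.819 to 1.94 in that of the other mice. Chat and Slc6a4, which define acetylcholine and serotonin neurons, were at 0 in all 10 columns. Only 3 of the 10 genes listed for these neurons were in the deposited data, so the absence of such cells is not shown.

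Of 6502 genes with a mean of at least 0.25 over the 10 columns, 838 were higher (12.9%) and 903 were lower (13.9%) in the VTA than in the thalamus at an adjusted p under 0.05 (limma with the mouse as a block, Benjamini-Hochberg), 26.8% in either direction. All 5 VTA levels lay above all 5 thalamus levels in 511 genes (7.86%) and below them in 606 (9.32%). The difference was over 2-fold in 135 of the higher and 253 of the lower genes. The median log2 difference of all tested genes was 0.0042. Without mice C2W2 and 785, 879 genes were higher and 939 lower. A gene near 0 in 1 region passed the minimum only through its level in the other, so counts over the tested members of a gene list are descriptions. The count depended on scaling: with TMM scaling 521 genes were higher and 942 lower, so that 35.6% of the calls were higher, against 48.1% with the total of the column.

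**Figure D1:**
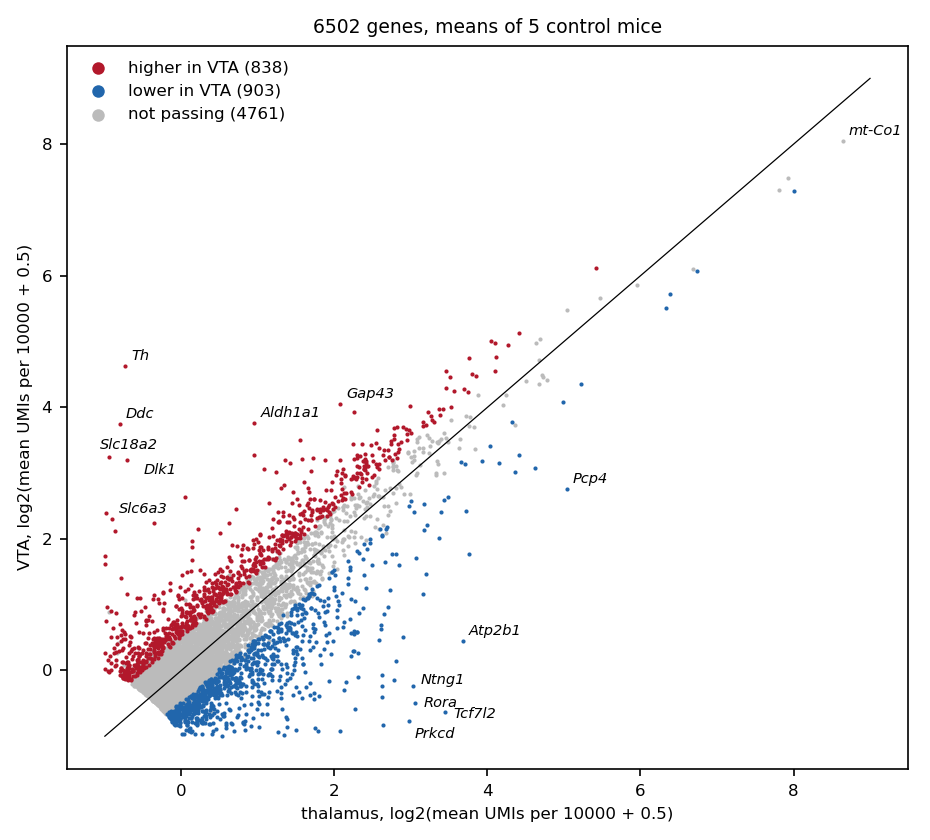
Mean level of each of 6502 genes in the VTA (y axis) and thalamus (x axis) of 5 control mice, both as log2(mean UMIs per 10000 + 0.5), with equal levels on the line. Red points are the 838 genes higher in the VTA, blue points the 903 lower and grey points those that did not pass. Th, Ddc and Slc18a2 lie far above the line, and Tcf7l2, Prkcd and Rora far below it.

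Genes that make and store DA had the 3 largest differences, those of Th, Ddc and Slc18a2. Th and Slc18a2 were used to pick discs, so their differences are partly a product of that choice. The 110-base windows around the transcription starts of these genes and of Slc6a3 are shown, from 100 bases before the start to 10 bases from it, because these 4 genes were high in every VTA column and near 0 in every thalamus column. Where several starts were available for a gene, only the one farthest 5′ was used. Which start is used in the VTA was not tested. Capitals mark letters of 5 motifs searched on both strands of 300 bases per promoter: the cAMP response element TGACGTCA, the NBRE AAAGGTCA bound by Nr4a2, the Pitx and Otx core TAATCC, the TCF/LEF motifs CTTTGAA and CTTTGAT, and TATAAA.
Th: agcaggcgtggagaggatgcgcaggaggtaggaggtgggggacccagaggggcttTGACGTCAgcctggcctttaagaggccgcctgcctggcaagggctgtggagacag
Slc18a2: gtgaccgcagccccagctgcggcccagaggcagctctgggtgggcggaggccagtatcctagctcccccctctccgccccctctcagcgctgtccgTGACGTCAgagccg
Ddc: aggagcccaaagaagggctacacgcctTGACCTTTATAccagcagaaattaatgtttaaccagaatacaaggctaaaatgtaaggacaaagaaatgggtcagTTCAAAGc
Slc6a3: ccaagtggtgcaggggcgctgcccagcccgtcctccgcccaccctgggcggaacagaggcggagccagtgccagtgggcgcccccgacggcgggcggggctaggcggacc
The sequences are from RefSeq on GRCm38.p6, 5′ to 3′ on the strand of the gene: Th at chr7:142899986-142900095 (minus), Slc18a2 at chr19:59260778-59260887 (plus), Ddc at chr11:11898135-11898244 (minus) and Slc6a3 at chr13:73536647-73536756 (plus). Th held TGACGTCA at -45 to -38 and Slc18a2 at -4 to 4. Ddc held the reverse complement of the NBRE at -73 to -66, overlapping the reverse complement of TATAAA at -68 to -63, and that of CTTTGAA at 3 to 9. Slc6a3 held none of the 5. A promoter was found by symbol for 5184 of the 6502 tested genes. TGACGTCA was in 4.86% of the promoters of higher genes, 3.51% of those of lower genes and 3.59% of those of all tested genes, and AAAGGTCA in 0.759%, 0.439% and 0.579%. In the same order, TATAAA was in 9.1%, 6.87% and 6.31%. CTTTGAA or CTTTGAT was in 7.28%, 4.68% and 5.69%, and TAATCC in 6.07%, 4.53% and 5.09%.

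Th, the rate-limiting enzyme of DA synthesis, was at 20.5, 26.7 and 19.2 in the VTA of GqVeh mice 784, 785 and 802 and at 28.1 and 26 in that of CNO alone mice C1W7 and C2W2, against 0.0337, 0.0372 and 0.0995 and 0.2 and 0.124 in the thalamus of the same mice. The regions did not overlap, with a log2 difference of 5.35 ± 0.16 (SE, n = 5 mice, adjusted p = 1.28e-15). Ddc, which turns L-DOPA into DA and was not used to pick discs, was at 9.66, 15.5, 11.7, 14.5 and 13.3 in the VTA, in the same order of mice, and at 0.101, 0.112, 0.149, 0 and 0 in the thalamus. Its log2 difference was 4.54 ± 0.17 (adjusted p = 8.56e-14).

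Slc18a2, the vesicular monoamine transporter, was at 6.57, 11.6, 8.67, 8.91 and 8.89 in the VTA and at 0, 0.0372, 0, 0.05 and 0 in the thalamus, a pooled ratio of 442.8 with a 95% exact counting interval of 122.2 to 3662, from 809 UMIs in the VTA and 2 in the thalamus. Slc6a3, the DA transporter, averaged 4.44 ± 0.77 in the VTA and 0.0342 ± 0.0409 in the thalamus (SD, n = 5). Slc10a4, an orphan carrier of monoaminergic vesicles, averaged 4.73 ± 0.58 and 0.0067 ± 0.0151, with 1 UMI in all 5 thalamus columns. These 3 genes did not overlap between the regions in any column.

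Of the 14 tested genes of DA synthesis, storage and uptake, 11 were higher and 0 lower, with a median log2 difference of 1.86. Of all tested genes 12.9% were higher and 13.9% lower. The 11 include Th, Slc6a3 and Slc18a2, which were used to pick discs, so the count and median are partly a product of that choice. Gch1, which makes the cofactor of Th, was at 1.34 to 1.55 in the VTA, where Drd2, the autoreceptor of DA neurons, was at 0.834 to 2.32. Both were nearly absent in the thalamus, with 1 UMI of Gch1 and 3 of Drd2 over 5 columns. Aldh1a1, an aldehyde dehydrogenase of a subset of DA neurons, varied more: it was at 7.41, 9.30, 17.7, 18.7 and 12 in the VTA and at 1.78, 2.35, 1.49, 0.95 and 0.619 in the thalamus. The levels of Maoa, which degrades monoamines, were 0.880 ± 0.213 in the VTA and 0.288 ± 0.052 in the thalamus (adjusted p = 0.00312), and Qdpr and Pts, of the cofactor pathway, passed with log2 differences of 0.50 and 0.51.

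**Figure D2:**
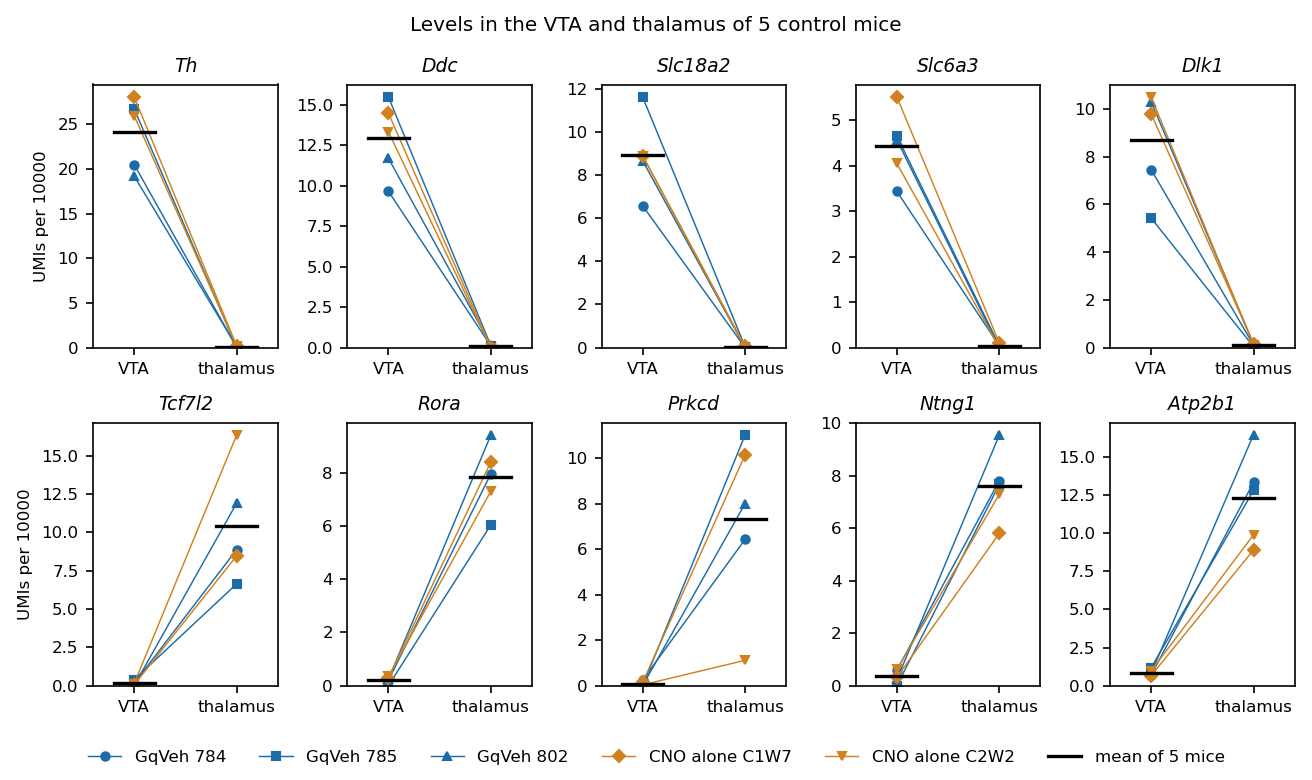
Levels in UMIs per 10000 (y axes, from 0) of 10 genes in the VTA (left) and thalamus (right) of each control mouse, a line per mouse, with the mean of 5 mice as a black bar. The VTA is above the thalamus in every mouse for Th, Ddc, Slc18a2, Slc6a3 and Dlk1, and below it in every mouse for Tcf7l2, Rora, Prkcd, Ntng1 and Atp2b1, with Prkcd at 1.11 in the thalamus of CNO alone C2W2 and at 6.43 to 11.0 in the other mice.

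Transcription factors of DA neurons were low, and most were found in the VTA and hardly or not at all in the thalamus. En1, an engrailed homeobox factor needed for the survival of these neurons, was at 2.34 to 3.88 in the VTA and at 0 in all 5 thalamus columns, where 3 UMIs over the 1047246 of the region would be 0.0286, so it was at least 98.6-fold higher. Nr4a2, the nuclear receptor that drives Th, was at 0.387 to 1.48 in the VTA and at 0 to 0.247 in the thalamus (log2 difference 1.30 ± 0.19, adjusted p = 3.37e-05). Both passed the minimum only through their VTA levels. Of the 13 factors listed 10 were too low to be tested, and of these Pitx3, Lmx1a, Lmx1b, Foxa1, Foxa2 and Ebf3 had 25, 15, 17, 23, 48 and 28 UMIs over the VTA columns and 0 over the thalamus columns.

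Among 15 tested genes that mark DA neuron subtypes, 11 were higher and 1 was lower, with a median of 1.37. Dlk1, a Notch ligand homologue, was at 7.46, 5.42, 10.3, 9.79 and 10.5 in the VTA and at 0.0372 to 0.15 in the thalamus (3.87 ± 0.17, adjusted p = 6.62e-13). Ret, the receptor for GDNF family ligands, was at 3.73 to 4.80 in the VTA and at 0.202 to 0.400 in the thalamus, and Gfra1, its co-receptor, at 1.03 to 1.94 and at 0 to 0.495. Sncg, γ-synuclein, had a log2 difference of 2.96 ± 0.18. The lower member was Slc6a17, a vesicular amino acid transporter (-1.01 ± 0.17). Grp and Lpl passed and were higher in all 5 mice, while Tacr3 was at 0 in the VTA of GqVeh 802 and Ntsr1 at 0 in the VTA of GqVeh 785.

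Of 4 tested nicotinic subunits, which form receptors for acetylcholine, 3 were higher in the VTA and 0 lower. Chrna6, the nicotinic subunit typical of DA neurons, was at 1.82, 2.32, 3.63, 2.77 and 2.23 in the VTA and at 0 in every thalamus column, at least 89.2-fold higher. Chrnb3 was at 0.820 to 1.94 in the VTA and had 1 UMI in the thalamus, and Chrna4 averaged 1.54 ± 0.29 in the VTA and 0.711 ± 0.25 in the thalamus (adjusted p = 0.00254). The fourth, Chrnb2, averaged 0.236 ± 0.142 in the VTA and 0.422 ± 0.110 in the thalamus and did not pass (-0.34 ± 0.18, adjusted p = 0.173).

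Thalamic genes formed the other pole. Of 21 tested members of that list 20 were lower in the VTA, with a median log2 difference of -2.18, and in each of the 20 all 5 VTA levels lay below all 5 thalamus levels. Of all tested genes 13.9% were lower and 9.32% lay below in this way. The 20 include Prkcd, Ptpn3 and Synpo2, which were used to pick discs. Members near 0 in the VTA, such as Tcf7l2, passed the minimum only through their thalamus levels, so these counts are descriptions. Tcf7l2, a Wnt-responsive factor that patterns the thalamus, was at 0.147, 0.387, 0, 0.0571 and 0.137 in the VTA and at 8.86, 6.63, 11.9, 8.45 and 16.3 in the thalamus (-4.04 ± 0.21, adjusted p = 1.03e-11). Rora, a retinoid-related orphan receptor, was at 0 to 0.343 in the VTA and at 6.03 to 9.40 in the thalamus (-3.55 ± 0.17, adjusted p = 1.84e-12). Neither gene had been used to pick discs.

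Ntng1, netrin-G1, which guides thalamocortical axons, had a log2 difference of -3.30 ± 0.19. Zic1 was at 0 to 0.0857 in the VTA and at 2.94 to 5.20 in the thalamus, and the RNA editing enzyme Adarb1 averaged 0.456 ± 0.247 and 5.66 ± 0.76. Tnnt1, a slow skeletal troponin that is also a thalamic marker, ranged over 1.61 to 9.76 among the thalamus columns and was at 0 to 0.234 in the VTA. Of the genes used to pick thalamic discs, Prkcd, a protein kinase C, was at 0 to 0.245 in the VTA and at 6.43, 11.0, 8.01, 10.2 and 1.11 in the thalamus, Ptpn3 at 0 to 0.117 and at 2.23 to 3.22, and Synpo2 at 0 to 0.103 and at 1.58 to 2.74.

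The member that went the other way was Calb2, calretinin, which was at 5.04 to 7.96 in the VTA and at 1.35, 0.819, 1.94 and 1.10 in the thalamus of mice 784, 785, 802 and C1W7 but at 19.7 in that of CNO alone C2W2. The same thalamus column was also high in Nrgn (18.1, against 1.08 to 4.05 in the others), Resp18 (6.56, against 1.15 to 1.6) and 6330403K07Rik (4.33, against 0.370 to 1.09), and low in Prkcd. Calb2 passed in the fit of all mice (log2 difference 1.29 ± 0.33, adjusted p = 0.00655). Within array pair 1, which holds that mouse, its log2 difference was -0.04.

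Transmitter genes separated the regions as well. Slc17a6, the vesicular glutamate transporter of the thalamus and of some VTA neurons, was at 0.343 to 1.55 in the VTA and at 3.17 to 6.06 in the thalamus (-1.98 ± 0.22, adjusted p = 9.62e-07), with its highest VTA level in GqVeh 785. Slc17a7, the cortical type of that transporter, was also lower (-1.54 ± 0.23). Gad2, a GABA-synthesizing enzyme, was at 1.91, 0.775, 1.05, 1.17 and 1.48 in the VTA and at 0.112 to 0.547 in the thalamus (1.26 ± 0.21, adjusted p = 0.000150). Slc32a1, the vesicular GABA transporter, was higher too (1.07 ± 0.19, adjusted p = 0.000268). Gad1 passed with 0.74 ± 0.25 but was at 0 in the VTA of GqVeh 785. Slc6a11, a GABA transporter found mainly in astrocytes, was lower (-0.68 ± 0.21, adjusted p = 0.0222). In all, 3 of 6 tested GABAergic genes were higher and 1 lower, and the summed level of the list overlapped, at 5.04 to 11.1 in the VTA and 6.06 to 9.01 in the thalamus. Discs can hold several cells, so these levels do not say which cells carried the transcripts, and fewer cells of a type cannot be told apart from less RNA per cell.

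Of 13 tested granins and prohormone processing genes, 8 were higher in the VTA and 0 lower, with a median of 0.57, and with TMM scaling 5 were higher. Of 6 tested neuropeptide precursor genes, 2 were higher and 0 lower, and without CNO alone C1W7 1 was higher. Scg2, secretogranin II, was at 10.3 to 13.6 in the VTA and at 3.10 to 9.03 in the thalamus (1.16 ± 0.18). Cadps2, which primes dense-core vesicles, averaged 2.16 ± 0.45 in the VTA and 0.0763 ± 0.0364 in the thalamus, and Resp18, a granule protein, was at 5.39 to 13.9 in the VTA and at 1.15, 1.6, 1.24, 1.55 and 6.56 in the thalamus, where CNO alone C2W2 was highest. Tac1, the substance P precursor, was at 6.59 in the VTA of GqVeh 785 and at 0 to 0.114 in the other VTA columns, and did not pass (adjusted p = 0.0988).

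Most ion channel and receptor genes that differed were lower in the VTA. Of 30 tested potassium and HCN channel genes, 2 were higher and 16 lower (median -0.54), of 8 sodium channel genes 0 were higher and 5 lower (median -0.74), and of 14 calcium channel genes 2 were higher and 6 lower (median -0.36). Kcnc2 and Kcnc1, Kv3 subunits of fast-spiking neurons, had log2 differences of -2.06 ± 0.17 and -1.70 ± 0.18, and Kcna2, an axonal Kv1 subunit, -1.98 ± 0.18. Cacna1g, the T-type channel behind thalamic bursts, was at 0.147 to 0.775 in the VTA and at 1.56 to 2.72 in the thalamus (-1.56 ± 0.20, adjusted p = 9.18e-06). Cacng3, an AMPA receptor auxiliary subunit, went the other way (0.83 ± 0.19). Scn8a and Scn1a, sodium channel pore subunits, differed by -1.16 and -1.01.

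Receptors for glutamate and GABA showed the same direction. Of 16 tested glutamate receptor genes 0 were higher and 9 lower (median -0.53), and of 13 tested GABA and glycine receptor genes 0 were higher and 6 lower (median -0.38). Grin2b, an NMDA receptor subunit, averaged 0.273 ± 0.130 in the VTA and 2.25 ± 0.73 in the thalamus (-1.81 ± 0.21, adjusted p = 1.41e-06). Gabbr2, a GABAB subunit, was at 0.638, 2.32, 0.468, 0.914 and 0.926 in the VTA and at 4.66 to 6.05 in the thalamus. The extrasynaptic GABAA subunits Gabra4 and Gabrd had log2 differences of -1.61 ± 0.20 and -1.58 ± 0.20.

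**Figure D3:**
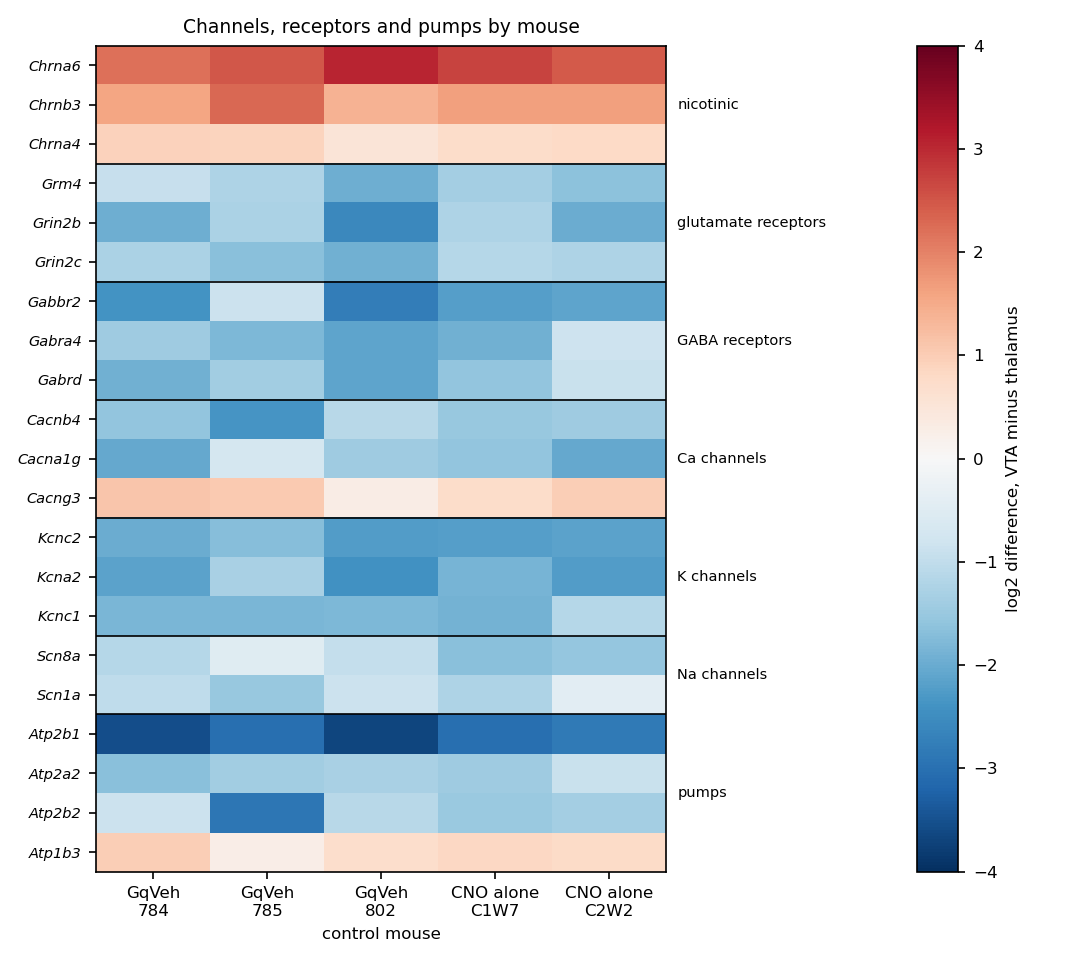
Log2 difference, VTA minus thalamus, of 21 channel, receptor and pump genes (rows, grouped by kind) in each control mouse (columns, GqVeh left of CNO alone), on a colour scale from -4 (blue) to 4 (red). The nicotinic subunits shown, Cacng3 and Atp1b3 are red in all 5 mice and the other rows blue, from -3.68 for Atp2b1 in GqVeh 802 to -0.41 for Scn1a in CNO alone C2W2. The rows are a choice of genes, and the nicotinic subunit Chrnb2, which did not pass, is not shown.

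The 3 tested calcium pump genes of the pump list were lower in the VTA. Atp2b3, also of the list, was too low to be tested. It averaged 0.190 in the VTA (7 UMIs) and 0.0939 in the thalamus (10 UMIs). Atp2b1, the plasma membrane calcium pump PMCA1, was at 0.687, 1.16, 0.820, 0.657 and 0.961 in the VTA and at 13.3, 12.8, 16.5, 8.90 and 9.90 in the thalamus (-3.22 ± 0.17, adjusted p = 1.38e-11). Atp2a2, the SERCA pump of the endoplasmic reticulum, averaged 2.77 ± 0.56 in the VTA and 7.84 ± 1.90 in the thalamus, and Atp2b2, another plasma membrane pump, 1.06 ± 0.68 and 3.61 ± 0.69. Pcp4, a calmodulin regulator, was at 4.26 to 9.60 in the VTA but spread over 39.8, 57.3, 17.3, 36.7 and 10.4 in the thalamus. Atp1b3, a sodium-potassium pump subunit, was higher in the VTA (0.71 ± 0.18). In all, of 9 pump genes 2 were higher and 5 lower.

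Of 33 tested G protein signalling genes, 5 were higher and 16 lower (median -0.48). Camk2a, a calmodulin-dependent kinase of excitatory neurons, was at 0 to 0.583 in the VTA and at 3.05 to 9.40 in the thalamus (-2.82 ± 0.17). Camk2a, Slc17a7 and Nrgn also belong to a list of cortical and hippocampal neuron genes, of which 2 of 10 tested were higher and 7 lower (median -1.14). The summed level of that list was 4.26 to 6.91 in the VTA and 15.7, 10.0, 19.6, 17.2 and 34.8 in the thalamus, highest in CNO alone C2W2, and its part in the differences above was not tested. Rgs7bp, an anchor for regulators of G protein signalling, was at 0.442 to 0.775 and at 5.20 to 8.61, and Rasgrp1, an exchange factor for Ras, at 0.0857 to 0.387 and at 3.22 to 5.50.

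Presynaptic genes went both ways, with 6 of 26 higher and 6 lower. Sv2c, a vesicle glycoprotein of basal ganglia circuits, and Syt4 were higher (1.49 ± 0.19 and 0.97 ± 0.18). Syt1, the calcium sensor of fast release, was lower (-0.84 ± 0.16), as were Snap25 (-0.57 ± 0.17) and Syn2 (-1.28 ± 0.19). Of 12 tested genes of inherited parkinsonism, 5 were higher and 0 lower (median 0.20), against 3 and 0 without GqVeh 802 and 3 and 1 with TMM scaling, with Uchl1 at 0.72 ± 0.17 and Park7 at 0.70 ± 0.17 among them.

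Axonal cytoskeleton genes went both ways, with 9 of 22 higher in the VTA and 4 lower, and 5 and 3 with TMM scaling. Gap43, a growth cone protein, was at 13.5 to 19.4 in the VTA and at 2.69 to 6.19 in the thalamus (2.01 ± 0.17, adjusted p = 1.32e-08), and Stmn2, a tubulin-binding axonal protein, averaged 10.3 ± 0.7 and 4.62 ± 0.43. The microtubule-associated Map1b and Map1a were lower (-0.97 ± 0.17 and -0.99 ± 0.17). Of 19 tested imprinted genes, 9 were higher and 2 lower (median 0.36). Nap1l5 averaged 14.7 ± 3.2 in the VTA and 4.26 ± 0.83 in the thalamus, Ndn 8.82 ± 1.17 and 2.49 ± 1.32, and Nnat was at 3.75 to 10.5 in the VTA and at 0.95 to 2.22 in the thalamus of 4 mice and 3.71 in that of CNO alone C2W2, while Peg13 was lower (-0.97 ± 0.18).

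**Figure D4:**
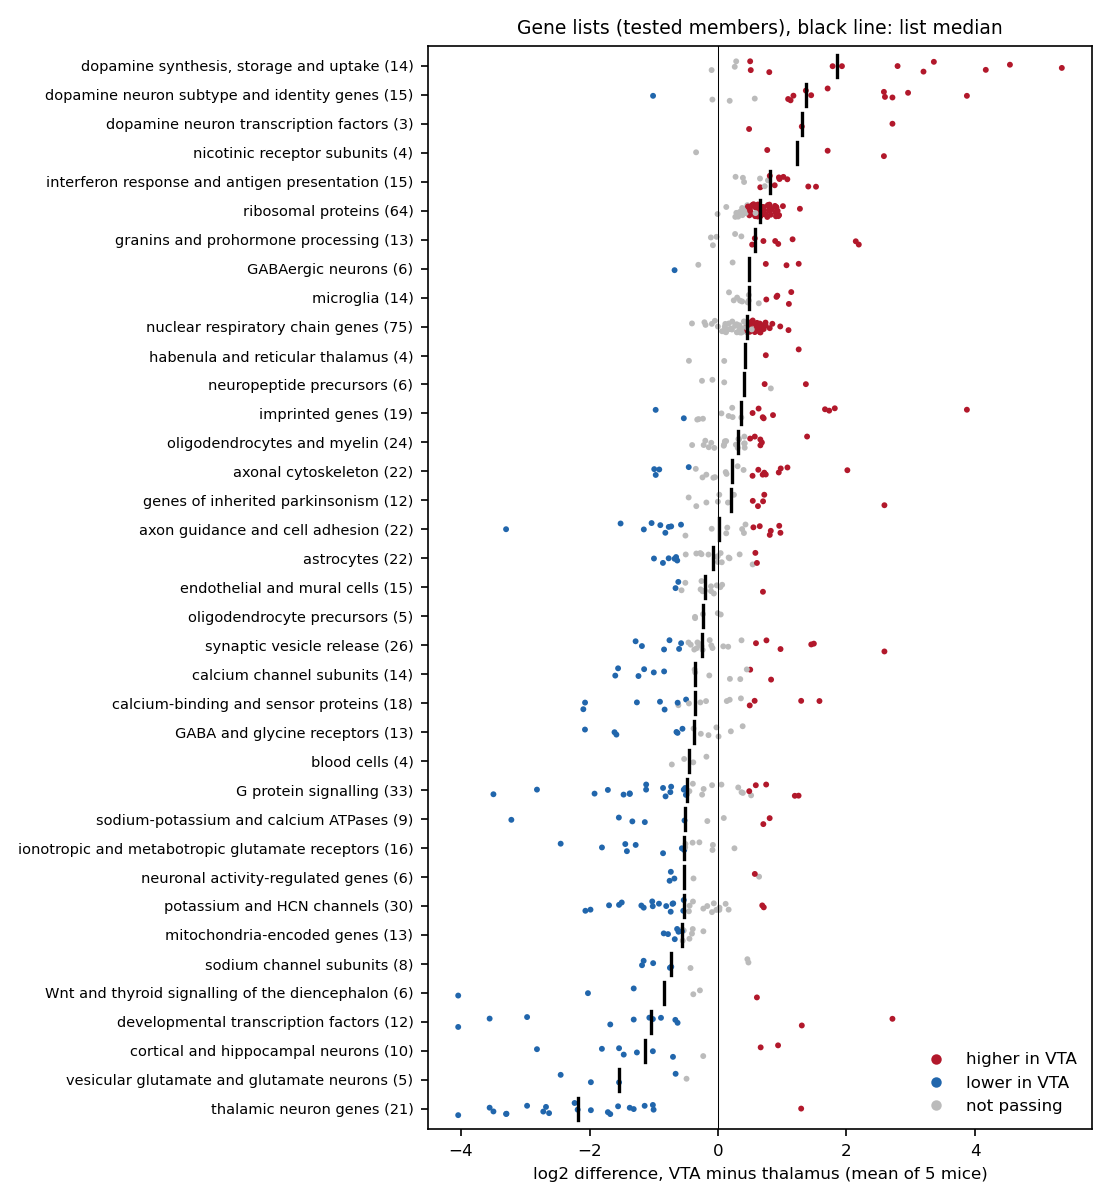
Log2 difference, VTA minus thalamus (x axis), of every tested member of gene lists with at least 3 tested members (rows, with the number tested), each point the mean of 5 control mice, red where it was higher, blue where it was lower and grey where it did not pass. Black lines are list medians, which run from 1.86 for DA synthesis, storage and uptake at the top to -2.18 for thalamic neuron genes at the bottom.

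With levels scaled to the total of the column, genes of protein synthesis and respiration split by genome. Of 64 ribosomal protein genes, 50 were higher and 0 lower (median 0.65), and of 75 nuclear genes of the respiratory chain 35 were higher and 0 lower (median 0.45). Rpl6 was at 10.5 to 14.0 in the VTA and at 4.63 to 9.19 in the thalamus (0.91 ± 0.16). Sdhb, of complex II, was at 3.70 ± 1.16 and 1.54 ± 0.77. The 13 genes encoded in the mitochondrial genome had a median of -0.55, with 0 higher and 6 lower, mt-Nd3 and mt-Nd2 among them (-0.84 ± 0.19 and -0.78 ± 0.21). The summed level of these 13 genes was 880 to 1150 in the VTA, and in the thalamus it was 2448 in CNO alone C1W7 and 1245 to 1429 in the other mice. Scaling and single mice moved these counts: with TMM scaling 19 ribosomal genes and 5 nuclear respiratory genes were higher and 2 mitochondria-encoded genes lower, and without GqVeh 802 37, 14 and 3. With TMM scaling 521 of all 6502 tested genes were higher and 942 lower, and both respiratory counts lay near those shares. The TMM medians of the 3 lists were 0.54, 0.35 and -0.66.

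Glial markers did not move as a block. Of 22 tested astrocyte genes, 2 were higher and 6 lower (median -0.08), against 5 and 3 without GqVeh 785, 0 and 5 without GqVeh 784 or CNO alone C2W2 or with TMM scaling, 1 and 3 without GqVeh 802 and 1 and 5 without CNO alone C1W7, with the glutamate transporter Slc1a2 at 4.11 ± 0.84 in the VTA and 8.79 ± 2.37 in the thalamus. Of 24 oligodendrocyte and myelin genes, 6 were higher and 0 lower (median 0.31), with Apod at 5.01 to 15.1 and 1.11 to 5.08 (1.39 ± 0.18), but without CNO alone C2W2, or without C1W7, 2 were higher, and in the 3 GqVeh mice alone 1 was higher and 1 lower (median -0.03). The summed level of the astrocyte list was 73.6 to 121.9 in the VTA and 82.3 to 120.1 in the thalamus, and that of the oligodendrocyte list 106.2 to 203.6 and 103.3 to 178.4. The part of these cells in the results above was not tested.

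The last comparison asked whether the regional difference was the same in both control groups, of which the GqVeh mice carried the virus and the CNO alone mice had the ligand. No gene (0%) passed in limma on the difference per mouse, GqVeh minus CNO alone, and 235 had an unadjusted p under 0.05. edgeR's quasi-likelihood test called 1 gene, B2m. The 4 genes of smallest p were Chrm3, B2m, H2-K1 and H2-D1. Chrm3, the M3 muscarinic receptor, was at 3.29, 1.55 and 1.76 in the VTA of GqVeh mice 784, 785 and 802 and at 0.0286 and 0 in the VTA of CNO alone mice C1W7 and C2W2, and at 0 to 0.0995 in all thalamus columns. Its regional difference was larger by 2.22 on the log2 scale in GqVeh mice (adjusted p = 0.0596). Whether these UMIs came from the hM3Dq transgene was not tested.

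The other 3 genes of smallest p encode parts of MHC class I, which presents antigens, and none of them passed. B2m, the light chain of MHC class I, was at 17.0, 6.59 and 12.3 in the VTA of GqVeh mice and at 1.37 and 2.16 in that of CNO alone mice, against 1.38, 1.97 and 2.14 and 1.25 and 1.36 in the thalamus (adjusted p for the difference between the groups 0.287). The MHC class I heavy chain H2-K1 was at 4.12, 1.55 and 4.68 and at 0.428 and 0.377 in the VTA, H2-D1 at 6.28, 2.32 and 7.14 and at 0.571 and 0.720, and the interferon-induced Bst2, of the same gene list, at 2.01, 0.775 and 1.87 and at 0.0571 and 0.103. In each of these 4 genes the lowest GqVeh level in the VTA lay above the highest CNO alone level. B2m, H2-K1 and H2-D1 were picked by their p between the groups, so this gap is not separate evidence for them. The share of all tested genes with such a gap was not counted. The summed level of the 28 genes of this list was 57.9, 19 and 48.4 in the VTA of GqVeh mice, 7.11 and 7.72 in that of CNO alone mice, and 4.83 to 10.0 in the thalamus.

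In the fit of all 5 mice, 9 of 15 tested genes of this list were higher in the VTA and 0 lower, as were 5 of 14 microglia genes, C1qb and Ctss among them. Without GqVeh 784 the counts were 5 and 2, and without GqVeh 785 15 and 8. Ctss, a lysosomal protease of microglia, was at 5.40, 0.775 and 6.09 in the VTA of GqVeh mice and at 0.600 and 0.618 in that of CNO alone mice. The summed microglia list was 73.6, 32.5 and 66.6 in the VTA of GqVeh mice and 35.4 and 31.6 in that of CNO alone mice. Without GqVeh 785, 26 genes differed between the control groups, B2m (adjusted p = 2.15e-07), Chrm3 (3.31e-07), H2-D1, H2-K1 and Bst2 among them, but then 2 mice remain in each group. With the array pair as a term beside the group, Chrm3 and B2m passed (adjusted p = 0.00806 and 0.0191). Injection and CNO differ together between the groups and cannot be told apart.

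**Figure D5:**
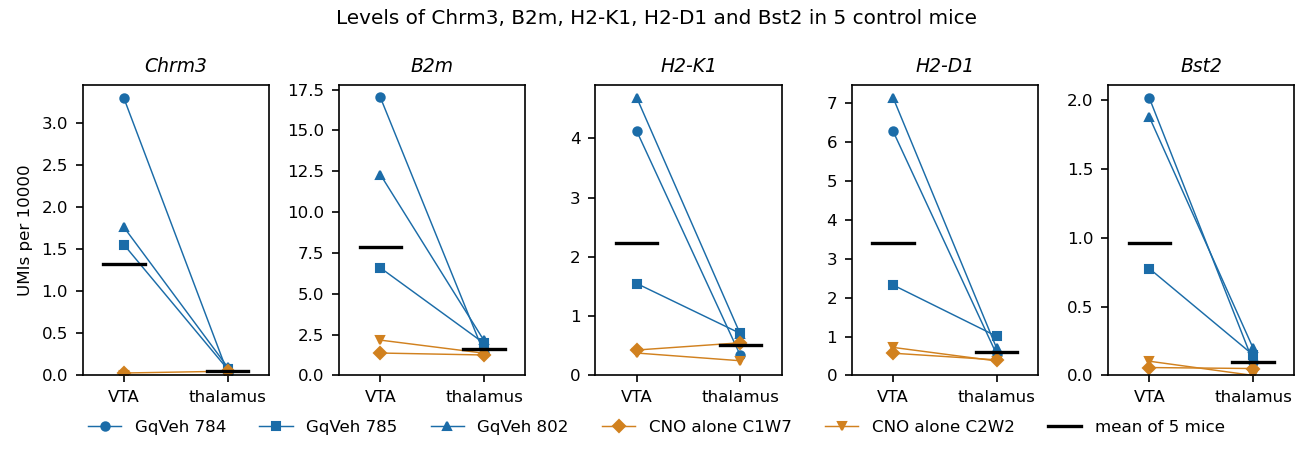
Levels in UMIs per 10000 (y axes, from 0) of Chrm3, B2m, H2-K1, H2-D1 and Bst2 in the VTA (left) and thalamus (right) of each control mouse, GqVeh in blue and CNO alone in orange, with the mean of 5 mice as a black bar. The VTA levels of the 3 GqVeh mice lie above those of the 2 CNO alone mice for each gene, and the thalamus levels of all mice are low. Chrm3, B2m, H2-K1 and H2-D1 were picked by their p between the groups.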

How the data were processed

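The authors aligned and counted the reads with Space Ranger on mm10 (versions not given in the sources used here), chose discs in Loupe Browser and deposited, per region and mouse, a median-normalized average signal of each gene. The deposited signal moved in steps of 1 UMI: below 200 steps, 100% of values lay within 0.05 steps of a whole number, and UMI counts were recovered from them. Each column was rescaled to 10000 UMIs, 0.5 was added and log2 taken. Both midbrain files list 14904 genes, and 1042 (array pair 1) and 1274 (array pair 2) others are listed once and were given 0 in the other file. The labels deposited per disc served to count discs.

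Genes with a mean of at least 0.25 over the 10 columns were fitted in limma 3.58.1 (R 4.3.3) with region and mouse as terms, leaving 4 residual degrees of freedom, and a variance trend. The difference between control groups was fitted on the VTA minus thalamus difference per mouse. The methods name no test between regions. The Benjamini-Hochberg adjustment covered all 6502 genes. With 5 mice, p-values measure the spread between these mice. edgeR 4.0.16 and DESeq2 1.42.0 were run on the recovered UMIs as alternatives: edgeR's quasi-likelihood test called 1002 genes higher and 1166 lower. Intervals and floors (3 UMIs over a region) cover counting error only. The floor of a single column was 0.0857 to 1.16 per 10000 in the VTA and 0.101 to 0.371 in the thalamus. The scripts were tested on simulated counts.

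Named genes are those the methods used to choose or leave out discs, the 15 largest higher and 15 largest lower differences that passed with 1 sign in all 5 mice, up to 6 members with the smallest p of each of 39 gene lists, and the 4 genes of smallest p between the control groups. Pitx3, Lmx1a, Lmx1b, Foxa1, Foxa2, Ebf3, Chat, Slc6a4, Atp2b3, Cacng3, Calb2, Drd2, Gch1, Gfra1, Lpl, Maoa, Nrgn, Ntsr1, Pts, Slc6a17, Snap25, Syt1 and Tacr3 are outside that rule and were named after their values were seen. The members and lists were chosen with earlier results of these data known. Results on some genes are not reported here.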

Additional observations from a re-analysis of the deposited data

Results flagged for a closer look

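Of 160 sets of 5 levels in a region that reach at least 1 (genes examined one by one), 17 had a mouse far from the other 4 by Dixon's ratio (over 0.71), where chance gives about 1 in 20. The genes are those named in the text, and some, Calb2 and Nrgn among them, were named after their values were seen. The 17 can therefore not be set against that rate. In the thalamus of CNO alone C2W2 these were Calb2 (19.7, others 0.819 to 1.94), Nrgn (18.1, others 1.08 to 4.05), Resp18 (6.56, others 1.15 to 1.6), 6330403K07Rik (4.33, others 0.370 to 1.09), Syt4 (2.85, others 1.68 to 1.94) and Gbx2 (2.47, others 0.894 to 1.10). In the VTA of GqVeh 785 they were Tac1 (6.59, others 0 to 0.114), Gabbr2 (2.32, others 0.468 to 0.926), Chrnb3 (1.94, others 0.820 to 1.08) and Slc17a6 (1.55, others 0.343 to 0.687), and these 2 columns have the fewest discs of their regions. In GqVeh 802 they were Pcsk1n in the VTA (21.2, others 30.9 to 34.6) and Cit (8.96, others 5.35 to 6.19), Synpo2 (2.74, others 1.58 to 1.79) and Gfap (2.79, others 0.484 to 0.842) in the thalamus. The remaining 3 were En1 in the VTA of CNO alone C2W2 (3.88, others 2.34 to 2.71), Qdpr in the VTA of CNO alone C1W7 (6.08, others 4.71 to 5.04) and mt-Nd2 in the thalamus of CNO alone C1W7 (126, others 67.2 to 70.1).

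Gfap, an astrocyte gene used to leave out discs, had a regional difference of opposite sign in the control groups, by a small margin in CNO alone C2W2: it was at 4.66, 0.775 and 4.80 in the VTA of GqVeh mice against 0.842, 0.484 and 2.79 in their thalamus, and at 0.400 and 0.480 in the VTA of CNO alone mice against 0.600 and 0.495 in their thalamus. The regional difference was larger by 1.16 on the log2 scale in GqVeh mice and did not pass (adjusted p = 0.999), but Gfap was among the 26 genes that passed without GqVeh 785.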

How the results depend on the processing

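The direction of the regional difference held for the named genes in all but 2 cases: Calb2 was at -0.03592 within array pair 1, and Aldh1l1, which did not pass, at 0.0279 without mice C2W2 and 785, a setting chosen after seeing the data (879 higher and 939 lower genes). The counts of 838 higher and 903 lower genes moved more. They were 521 and 942 with TMM scaling (35.6% higher), 482 and 806 with DESeq2 (37.4%), 715 and 1027 without mitochondria-encoded genes in the total (41%), and 545 and 376 among the 1841 genes with a mean of at least 1 (59.2%). They were 208 and 222 with columns thinned to the lowest total, 345 and 470 in GqVeh mice, 488 and 570 within array pair 1, and 404 and 451 within array pair 2. Leaving out a mouse gave 554 (without C1W7) to 1080 (without 785) higher and 634 (without 784) to 1087 (without 785) lower genes, and the fit with no replicate block for the mouse 776 and 844. No gene that was called changed sign under TMM, DESeq2 or edgeR, while 26 did in the thinned columns and 5 within array pair 1. Between the control groups, 0 genes passed, against 1 with edgeR, 2 with the array pair as a term, and 0 (without 784) to 26 (without 785) with a mouse left out, 1 of them (Chrm3) without 802. Depth limits low genes most in the VTA of GqVeh 785, where 3 UMIs are 1.16 per 10000. All other alternatives listed gave counts within 1.5 times these.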

Other observations

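Gene length separated the calls, an analysis added after the values were seen. By the RefSeq gene table (GRCm38.p6), which held 6420 of the 6502 tested genes by symbol, the median span from the first to the last base of a gene was 9240 bp for the 833 genes higher in the VTA with a match, 66692.5 bp for the 886 lower and 24508 bp for the 4701 that did not pass. In the shortest of 5 equal bins of span (154 to 7842 bp, 1284 genes) 29.0% were higher and 4.36% lower, with a median log2 difference of 0.28, and in the longest bin (79239 to 2390387 bp) 5.84% were higher and 31.3% lower, with a median of -0.28. The median of the shortest bin was 0.22 to 0.39 and that of the longest -0.42 to -0.20 across the 5 mice. Ribosomal protein and nuclear respiratory genes are short and channel and receptor genes are often long. The part of length in the regional difference was not tested.

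The 3 GqCNO mice (hM3Dq and CNO) were left out of the fits. In the 2 of them with a thalamus column, 781 and 804, the regional difference had the direction of the control mice in 81.6% and 73.8% of the 838 higher genes, where 42.7% and 43.6% of all tested genes were higher, and in 92.0% and 88.0% of the 903 lower genes, where 57.3% and 56.4% of all tested genes were lower. Th was at 22.2 and 4.97 in the VTA of these mice and at 0 in their thalamus, and Prkcd at 0.112 and 0.249 in the VTA and at 10.3 and 11.9 in the thalamus.

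Of 19 activity-regulated genes 6 could be tested, 1 higher and 3 lower. Jun and Egr1, immediate early genes, had log2 differences of -0.75 ± 0.20 and -0.73 ± 0.25 (adjusted p = 0.00792 and 0.0326), with Egr1 lower in 4 of 5 mice, and Vgf, a granin induced by activity, 0.57 ± 0.18 (adjusted p = 0.0212). The counts rest on single mice: without GqVeh 784, GqVeh 802 or CNO alone C1W7, 0 were higher and 1 was lower, and without CNO alone C2W2 2 were higher and 1 lower.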
